A study of Mus musculus with 8 samples.

Results

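The genes described here are those that license origins of DNA replication and build the replication fork. The group holds the MCM, ORC, GINS, RFC and RPA families, Cdc45, Cdc6, Cdc7, Dbf4, Cdt1, Gmnn and Pcna. It also holds the named subunits of DNA polymerases alpha, delta and epsilon, primase, and CAF-1. Membership was set by symbol alone, although the group was chosen with earlier results of these data known. This gave 47 genes of 37620 listed identifiers, and all 47 had a read in at least 1 oocyte. RNA was sequenced from 8 single mouse oocytes of strain C57BL/6, at the MII stage, in which the cell waits in second meiotic metaphase for fertilization. The 4 WT oocytes were Hira f/f, with a floxed allele of the histone H3.3 chaperone gene Hira. The 4 KO oocytes were Hira f/f, Gdf9-Cre+, in which Cre under the Gdf9 promoter acts in oocytes. All 8 sample titles carry the tag Gdf9-Cre+, so the genotypes were taken from the genotype label and the description, which name the WT oocytes 1, 2, 4 and 5 and the KO oocytes 1, 3, 5 and 6. No source used here gives the age of the females.

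Origins are licensed in steps. The origin recognition complex, ORC, binds DNA, and CDC6 and CDT1 then help it to load the MCM helicase, while geminin binds CDT1 and blocks loading. The kinase CDC7 with its partner DBF4, together with cyclin-dependent kinases, then turns the loaded helicase into an active one with CDC45 and the GINS complex, and DNA polymerase alpha-primase, polymerase epsilon and polymerase delta copy the strands. An MII oocyte does not replicate its DNA. It stores mRNA that serves the zygote, where replication resumes after fertilization.

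Levels are FPKM, which count fragments relative to gene length and library size, and per-oocyte values below are in the order of the oocyte numbers just given. Because every library comes from 1 cell and no label ties it to an animal, each genotype counts as 1 sample, no test between genotypes was possible, and the SD over oocytes (n = 4 per genotype) gives only the spread between these cells. Genes that reached an FPKM of 1 in 4 or more of the 8 oocytes were compared, namely 7833 genes and 42 of the 47 replication genes. Chaf1b, Pold1, Pold2, Rfc2 and Rpa2 were below this level. A gene was called higher or lower when the mean FPKM differed by at least 2-fold, and differences are KO minus WT of the mean log2(FPKM + 1).

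The libraries held 38032455 to 50208686 reads. Reads in listed genes made up 84.3% to 86.2% of a WT library and 75.0% to 80.3% of a KO library, without overlap, and 7121 to 7467 genes in WT oocytes and 7827 to 8512 in KO oocytes reached an FPKM of 1. These values moved with genotype, and their part in the results below was not tested. Hira itself had 42, 0, 96 and 1 reads in the WT oocytes and 0, 2, 0 and 2 in the KO oocytes, so the genotypes overlapped at this gene. All 12 oocyte marker genes were compared and their summed FPKM was 16114 to 21441 in WT and 9743 to 12215 in KO oocytes. Most of this sum was Dppa3, with means of 11910 in WT and 7077 in KO oocytes, and Oosp1 and Gdf9 were next. Of the 12 differences 9 were negative and 3 positive, the latter for Ooep, Npm2 and Zp1. Of all compared genes 3378 were negative and 4455 positive. Of 16 granulosa cell genes 2 were compared, with sums of 17.8 to 28.0 in WT and 14.5 to 34.1 in KO oocytes, led by Cyp19a1, and Amh, Amhr2, Cyp11a1, Foxl2, Hsd17b1, Inha and Pgr were at 0 in every oocyte. Of 8 stromal and vessel genes 1 was compared, the endothelial gene Pecam1, and the list summed to 2.88 to 11.01 in WT and 0.862 to 2.87 in KO oocytes, with Cdh5, Col3a1 and Pdgfra at 0. Blood cell genes summed to at most 3.53, with Hba-a1, Hba-a2, Hbb-bs, Hbb-bt and Lyz2 at 0. The part of these cell types in the results was not tested.

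The promoters of 4 subunits of polymerases alpha and epsilon that were at least 2-fold apart between the genotypes are shown here. The reason is that the searched forms of a motif of E2F were present in some of them and not in others. E2F is the factor family that drives many replication genes. Pold4, the other polymerase subunit past 2-fold, rested on few reads and is not shown, and its window held no match. Each window runs from 250 bases before to 50 bases after the start site in RefSeq, on GRCm38.p6, and is written 5′ to 3′ on the strand of the gene. Capitals mark a match to an E2F-type motif, searched on both strands in the forms TTTCCCGC, TTTCGCGC, TTTGCCGC and TTTGGCGC. Pola1 is shown at chrX:93632106-93632405, Pola2 at chr19:5964157-5964456, Pole2 at chr12:69228141-69228440 and Pole4, in the second of its windows, at chr6:82652825-82653124, all on the minus strand.
Pola1: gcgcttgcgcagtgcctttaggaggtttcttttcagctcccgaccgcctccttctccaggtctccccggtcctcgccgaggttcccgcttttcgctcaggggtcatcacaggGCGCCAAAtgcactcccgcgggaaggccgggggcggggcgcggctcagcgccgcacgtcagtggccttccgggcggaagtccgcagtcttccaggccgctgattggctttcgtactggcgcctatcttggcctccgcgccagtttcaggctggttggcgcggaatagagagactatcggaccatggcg
Pola2: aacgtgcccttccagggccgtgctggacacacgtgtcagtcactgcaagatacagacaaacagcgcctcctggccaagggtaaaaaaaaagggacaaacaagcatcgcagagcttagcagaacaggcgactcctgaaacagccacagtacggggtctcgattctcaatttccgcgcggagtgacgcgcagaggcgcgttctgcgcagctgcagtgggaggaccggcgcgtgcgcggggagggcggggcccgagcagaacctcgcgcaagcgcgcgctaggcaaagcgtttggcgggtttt
Pole2: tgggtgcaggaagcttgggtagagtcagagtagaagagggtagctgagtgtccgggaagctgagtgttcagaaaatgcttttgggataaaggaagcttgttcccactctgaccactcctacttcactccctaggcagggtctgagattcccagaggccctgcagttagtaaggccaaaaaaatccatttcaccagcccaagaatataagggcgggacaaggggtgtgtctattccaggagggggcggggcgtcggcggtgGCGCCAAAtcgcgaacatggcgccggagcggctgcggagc
Pole4: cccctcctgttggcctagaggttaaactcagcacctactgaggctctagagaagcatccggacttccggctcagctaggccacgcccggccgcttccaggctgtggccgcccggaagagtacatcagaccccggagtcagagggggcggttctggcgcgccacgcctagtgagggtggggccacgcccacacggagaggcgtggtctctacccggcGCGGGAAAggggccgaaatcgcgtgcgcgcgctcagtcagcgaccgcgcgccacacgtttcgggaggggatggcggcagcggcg

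The match lay at position -138 from the start site in Pola1, at 11 in Pole2 and at -34 in Pole4, and the Pola2 window held none of the searched forms. A stretch that differs from a form by 1 letter, such as TTTGGCGG near the end of the Pola2 window, was not counted. A promoter window was given for 40 of the 47 genes, and none for Gins1, Gins2, Gins4, Gmnn, Mcm4, Prim2 and Rfc2. An E2F-type match was present in 16 of these 40 genes (40.0%), against 4.99% of the 5791 compared genes with a window and 2.6% of all 27025 genes with one. Mcm6 held 3 matches, and Mcm3, Mcm5, Mcm7 and Rfc3 held 2 each, where matches that overlap were counted separately. The 2 in Mcm5, at -153 and -149, overlap in 1 stretch of letters, as do those at -110 and -106 in Mcm6. CCAAT, the letters bound by NF-Y, was in 62.5% of the 40 genes against 44.7% of the compared genes. A match is a description of these letters, and its absence says nothing about the factor.

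As a group the replication genes differed little between the genotypes. Of the 42 compared, 3 were at least 2-fold higher in KO oocytes (Pola1, Pola2 and Pold4), which is 7.14% against 18.3% of all compared genes. Pold4 entered the comparison through its KO oocytes, and with a mean FPKM of at least 5 as the filter Pola1 and Pola2 were the 2 higher genes of 27, against 12.8% of all genes so compared. The 3 that were at least 2-fold lower (Gins2, Pole2 and Pole4) were again 7.14%, against 6.84% of all compared genes. Of these, Gins2 reached an FPKM of 1 in 4 WT and 2 KO oocytes, so it entered in larger part through its WT oocytes. Every KO oocyte was above every WT oocyte for Pola1, Pola2 and Pold4, 7.14% against a background of 13.4%, and every KO oocyte was below every WT oocyte for Gmnn and Pole4, 4.76% against 7.37%. The median difference was 0.06 over the replication genes and 0.10 over all compared genes, and 24 of the differences were positive and 18 negative. The summed FPKM of the 47 genes was 2083 ± 97.1 in WT and 2163 ± 136 in KO oocytes, with ranges that overlapped. Spread between oocytes of a genotype was also close to that of other genes, with a median SD on the log2(FPKM + 1) scale of 0.39 in WT and 0.36 in KO oocytes against 0.41 and 0.38. When FPKM was rescaled to its sum in each oocyte (the TPM scale), the median of all compared genes moved to 0.27 and that of the replication genes to 0.22, and 23.6% of all compared genes were then higher and 4.56% lower. With median-of-ratios scaling these shares were 15.3% and 9.10%.

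**Figure D1:**
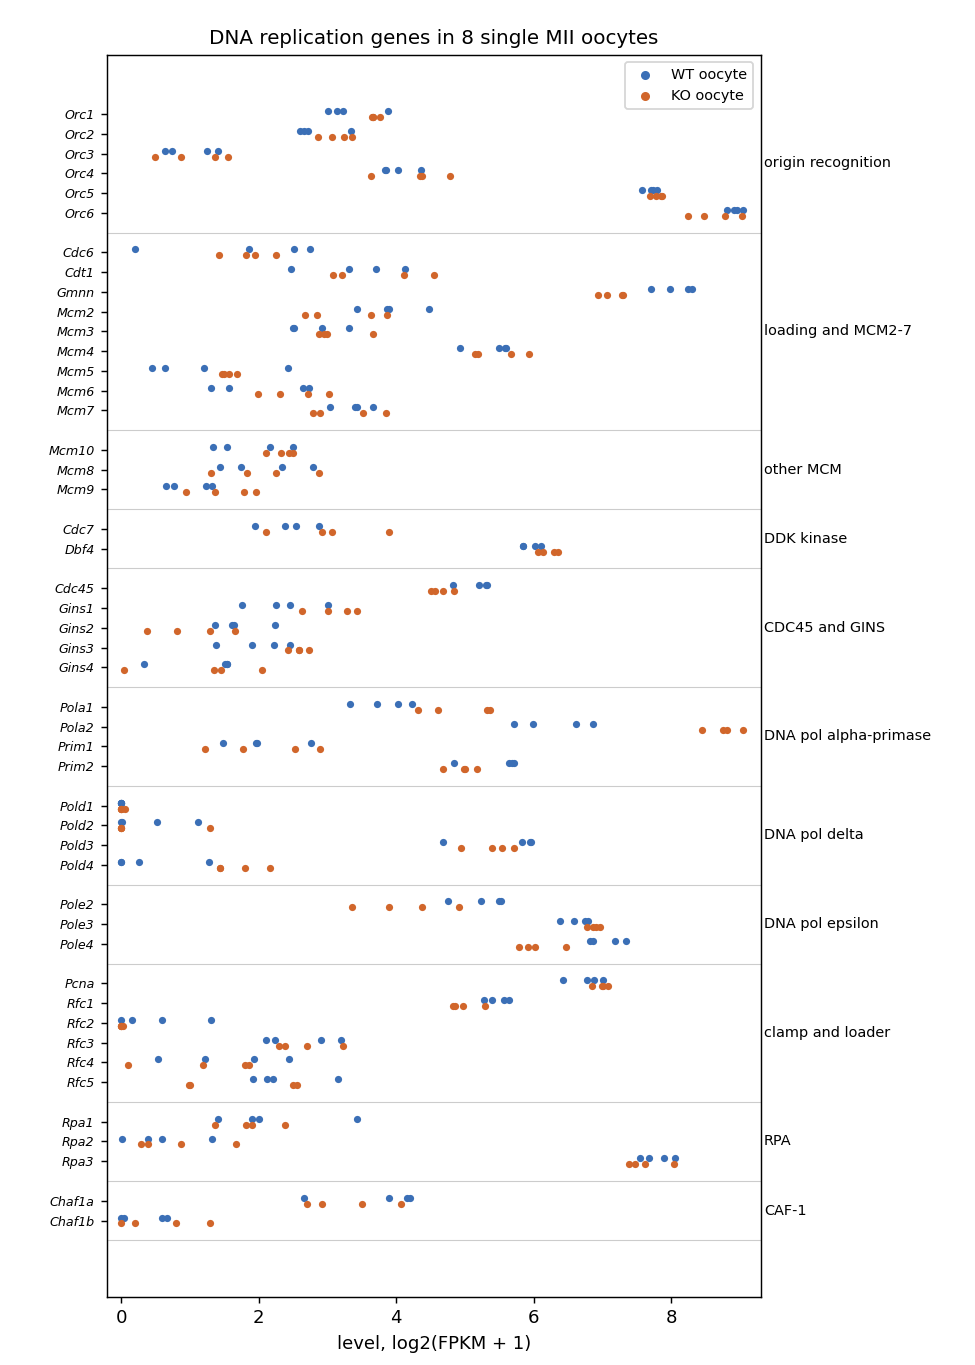
Level of each of the 47 replication genes in each oocyte, as log2(FPKM + 1) on the horizontal axis, with genes in rows by role and 1 point per oocyte (blue WT, orange KO). Orc6, Orc5, Gmnn, Rpa3 and, in KO oocytes, Pola2 lie to the right, Pold1, Pold2, Rfc2 and Chaf1b lie near 0, and the orange points of Pola2 are all clear of the blue ones.

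**Figure D2:**
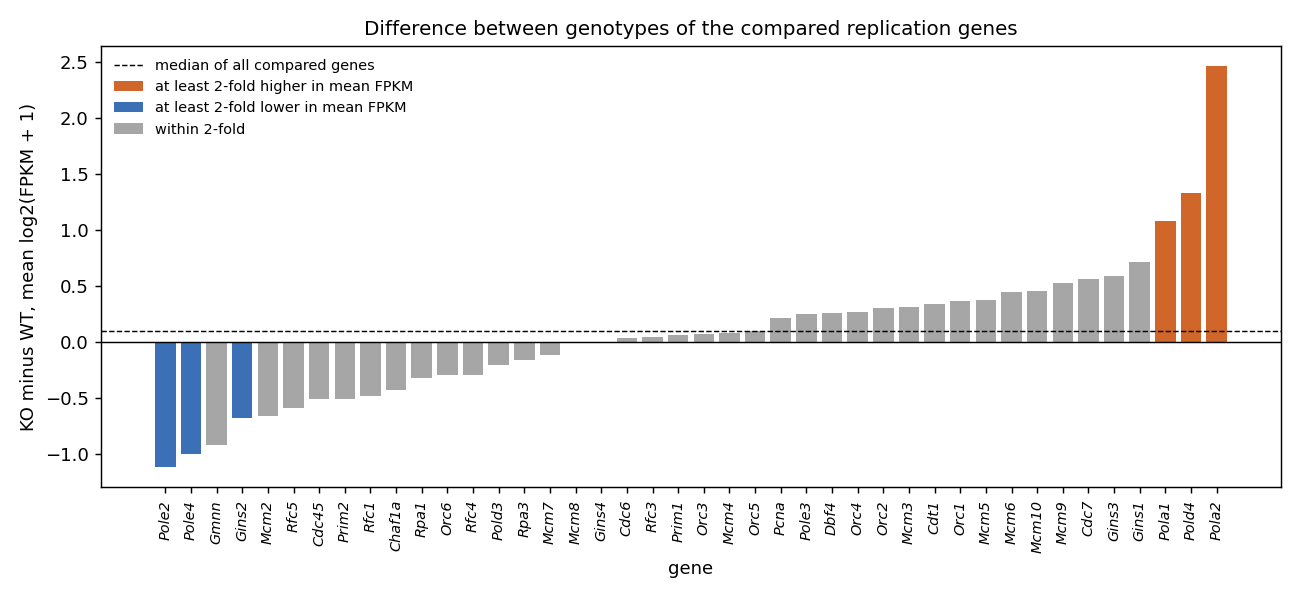
Difference of each of the 42 compared replication genes, KO minus WT of the mean log2(FPKM + 1), as bars in rising order, coloured by whether mean FPKM differed by at least 2-fold. The dashed line is the median of all compared genes, 0.10, and Pola2 at 2.47 stands above every other bar.

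The subunits of the origin recognition complex were unequal in level but alike between genotypes, and none of the 6 differed by 2-fold. Orc6, the subunit least tied to the rest of the complex in animals, was the most abundant of the replication genes in WT oocytes, and its mean lay above 98.6% of compared genes in both genotypes. Its FPKM was 449, 483, 494 and 528 in WT oocytes (489 ± 32.4) and 522, 356, 438 and 303 in KO oocytes (405 ± 96.1), so that KO oocytes spread more widely and reached below the WT range. Orc5, an ATPase-family subunit, varied little between oocytes, with 208 ± 12.9 there and 222 ± 12.3 in KO oocytes. Orc4 followed at 15.4 ± 2.86 and 19.3 ± 6.23, and Orc1, Orc2 and Orc3 had means between 1.06 and 11.8 in either genotype. At Orc1 the KO oocytes lay between 11.5 and 12.6, inside the WT range of 7.04 to 13.7. Of the exonic bases of Orc2, 29.8% are shared with the antisense gene Nif3l1 in GENCODE M21, and no source used here says whether counting used strand.

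Among the loading factors, the mRNA of the inhibitor stood far above that of the factor it binds. Gmnn, which encodes geminin, had FPKM of 209, 303, 253 and 316 in WT oocytes and 155, 156, 121 and 133 in KO oocytes. The lowest WT oocyte was above the highest KO oocyte, and the mean was 1.91-fold lower in KO, 270.1 ± 49.4 against 141 ± 17.2. The 2-fold limit was passed with median-of-ratios scaling (2.13-fold) and without WT oocyte 1 (2.06-fold). The fold was at least 1.66 under all 17 alternatives, of which those of pseudocount and filter cannot change a ratio of mean FPKM. Cdt1 had FPKM of 16.4, 4.55, 8.93 and 12.01 in WT and 8.25, 16.4, 7.44 and 22.4 in KO oocytes, with full overlap and means of 10.48 ± 5.01 and 13.6 ± 7.11. The ratio of Gmnn to Cdt1 was 12.7 to 66.6 in WT oocytes and 5.92 to 18.8 in KO oocytes, and these ranges overlapped. Cdc6, the ATPase that works with CDT1, was at 3.31 ± 2.47 in WT and 2.71 ± 0.854 in KO oocytes, and WT oocyte 5 was low at 0.151.

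The MCM helicase subunits did not share a level. Mcm4 was the most abundant, with FPKM of 47.2, 29.6, 44.2 and 47.3 in WT and 59.9, 34.6, 35.7 and 49.98 in KO oocytes, and the genotypes overlapped. Mcm2 was next, at 14.6 ± 4.79 in WT and 9.16 ± 4.00 in KO oocytes, a difference of -0.66 in which WT oocyte 5 lay inside the KO range. Mcm7 was at 9.57 ± 1.83 and 9.09 ± 3.59, Mcm3 at 6.22 ± 2.002 and 7.93 ± 2.49, Mcm6 at 3.59 ± 2.18 and 4.92 ± 1.85, and Mcm5 at 1.66 ± 1.87 and 1.95 ± 0.195. The mRNA of Mcm4 was thus far above that of Mcm5 in both genotypes, although their proteins join the same ring. The related genes Mcm8 and Mcm9, which act in homologous recombination, and Mcm10, which helps to activate the helicase, were low. Mcm8 had FPKM of 4.08, 5.94, 2.36 and 1.70 in WT and 6.34, 1.48, 3.77 and 2.57 in KO oocytes, and its means of 3.52 and 3.54 were almost equal. Mcm9 was 1.91-fold higher in KO, 1.96 ± 0.889 against 1.03 ± 0.457, with overlap. In GENCODE M21, 19.2% of its 9113 exonic bases are antisense to Asf1a, whereas the length behind its FPKM came out at 4898 bases.

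Of the 2 subunits of the activating kinase, the regulatory one was the more abundant. Dbf4 had FPKM of 56.4, 56.4, 64.1 and 67.9 in WT and 77.4, 65.9, 69.2 and 81.2 in KO oocytes, and only KO oocyte 3 lay inside the WT range. Its means of 61.2 ± 5.78 and 73.4 ± 7.05 differed by 0.26 on the log2(FPKM + 1) scale. Cdc7, the catalytic subunit, was at 4.58 ± 1.45 in WT and 7.81 ± 4.44 in KO oocytes, where KO oocyte 3 alone reached 13.9.

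The partners of the active helicase differed in direction. Cdc45 had FPKM of 39.1, 38.5, 27.4 and 35.7 in WT and 22.8, 21.8, 27.8 and 24.8 in KO oocytes. The genotypes touched only where WT oocyte 4 fell just under KO oocyte 5, and the WT mean was 1.45-fold that of KO, 35.2 ± 5.39 against 24.3 ± 2.65. Gins2 had FPKM of 3.74, 2.06, 2.11 and 1.59 in WT and 0.294, 0.757, 2.17 and 1.46 in KO oocytes, with overlap. Its mean was 2.03-fold lower in KO, 2.38 ± 0.942 against 1.17 ± 0.820, and this stayed within 2-fold without WT oocyte 1 (1.64-fold), KO oocyte 1 (1.63-fold) or KO oocyte 3 (1.82-fold), on the TPM scale (1.72-fold) and with medians over oocytes (1.88-fold). Of its exonic bases 67.3% lie antisense to Gse1, so reads of the pair cannot be told apart without strand. Gins1 at 4.44 ± 1.96 and 7.67 ± 2.004, and Gins3 at 3.13 ± 1.24 and 5.01 ± 0.523, had higher means in KO oocytes by 1.73-fold and 1.599-fold, with overlap, whereas Gins4 had means of 1.48 and 1.62.

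DNA polymerase alpha-primase, which lays the RNA-DNA primers of each new strand, held the largest difference of the replication genes on the log2(FPKM + 1) scale. In mean FPKM the low Pold4, described below, had the larger fold. Pola2, its regulatory B subunit (ENSMUSG00000024833, chr19:5940542-5964202 on GRCm38), had FPKM of 62.5, 116, 51.5 and 96.7 in WT oocytes and 429.8, 347, 447 and 526 in KO oocytes. Every KO oocyte was far above the highest WT oocyte, and the means were 81.6 ± 29.8 and 437 ± 73.6, a 5.36-fold difference resting on 40792 and 220453 reads. It was 4.77-fold to 6.23-fold under the alternatives of scaling, summary and oocytes. Those of pseudocount and filter cannot change it. In KO oocytes Pola2 lay above 98.8% of compared genes, against 92.6% in WT oocytes, and its KO mean exceeded that of Orc6.

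Pola1, the catalytic subunit (ENSMUSG00000006678, chrX:93304767-93632155), had FPKM of 9.04, 15.3, 12.2 and 17.8 in WT and 23.4, 19.1, 40.3 and 39.2 in KO oocytes. The genotypes were separated by a small gap, and the KO mean was 2.25-fold higher, 30.5 ± 10.8 against 13.6 ± 3.81. Under the alternatives of scaling, summary and oocytes it was 2.004-fold to 2.62-fold higher. The primase subunits differed from this. Prim1, which makes the RNA primer, had means of 3.36 ± 1.71 and 3.75 ± 2.30 with full overlap. Prim2, the large primase subunit, was at 51.3, 49.0, 27.6 and 50.2 in WT and 31.1, 30.6, 35.0 and 24.7 in KO oocytes, and its KO mean was lower, 30.4 ± 4.26 against 44.6 ± 11.3, with WT oocyte 4 inside the KO range. The proportions of the 4 mRNAs therefore differed between genotypes. The ratio of Pola2 to Pola1 was 4.24 to 7.56 in WT and 11.1 to 18.3 in KO oocytes, and that of Pola2 to Prim2 was 1.22 to 2.36 in WT and 11.3 to 21.3 in KO oocytes. These ratios do not depend on the scaling of a library, since both genes come from the same cell. Levels per length depend on the gene lengths behind FPKM, which for Pola2 came out at 2872 bases against 8294 in GENCODE M21. That length divides out of a fold between genotypes, but whether the fold holds over exonic bases outside it was not tested.

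Polymerase epsilon, which copies the leading strand, was lower in KO oocytes at 2 of its 3 subunits chosen by symbol. Pole2, its B subunit (ENSMUSG00000020974, chr12:69201773-69228195), had FPKM of 45.2, 44.3, 26.1 and 36.5 in WT and 9.25, 29.1, 13.9 and 19.7 in KO oocytes. The genotypes overlapped at WT oocyte 4 and KO oocyte 3, and the mean was 2.11-fold lower in KO, 18.0 ± 8.57 against 38.0 ± 8.88. The call ended without WT oocyte 1 (1.98-fold), WT oocyte 2 (1.998-fold), KO oocyte 1 (1.82-fold) or KO oocyte 5 (1.96-fold) and on the TPM scale (1.81-fold).

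Pole4, a histone-fold subunit (ENSMUSG00000030042, chr6:82618992-82705365), had FPKM of 161, 116, 112 and 145 in WT and 88.0, 59.4, 63.6 and 54.1 in KO oocytes, with no overlap. The mean was 2.01-fold lower in KO, 66.3 ± 15.01 against 133 ± 23.5, close enough to the limit that 7 alternatives ended the call, with folds down to 1.75 on the TPM scale. Those were the TPM scale, quantile normalization (1.93-fold) and leaving out WT oocyte 1 (1.87-fold) or 5 (1.95-fold), or KO oocyte 3 (1.94-fold), 5 (1.98-fold) or 6 (1.89-fold). Pole3, the histone-fold partner of POLE4, was at 107, 82.3, 95.1 and 109.9 in WT and 109, 124, 116 and 119 in KO oocytes, so the genotypes overlapped and the KO mean was 1.19-fold higher. The ratio of Pole3 to Pole4 was 0.662 to 0.847 in WT and 1.23 to 2.20 in KO oocytes, and that of Pole3 to Pole2 was 1.86 to 3.65 and 4.26 to 11.7. Pole, the catalytic subunit, whose symbol has no number and so was not among the 47, was at 0.126 FPKM or less in every WT oocyte and at 0.141 to 0.513 in KO oocytes, below the level compared.

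**Figure D3:**
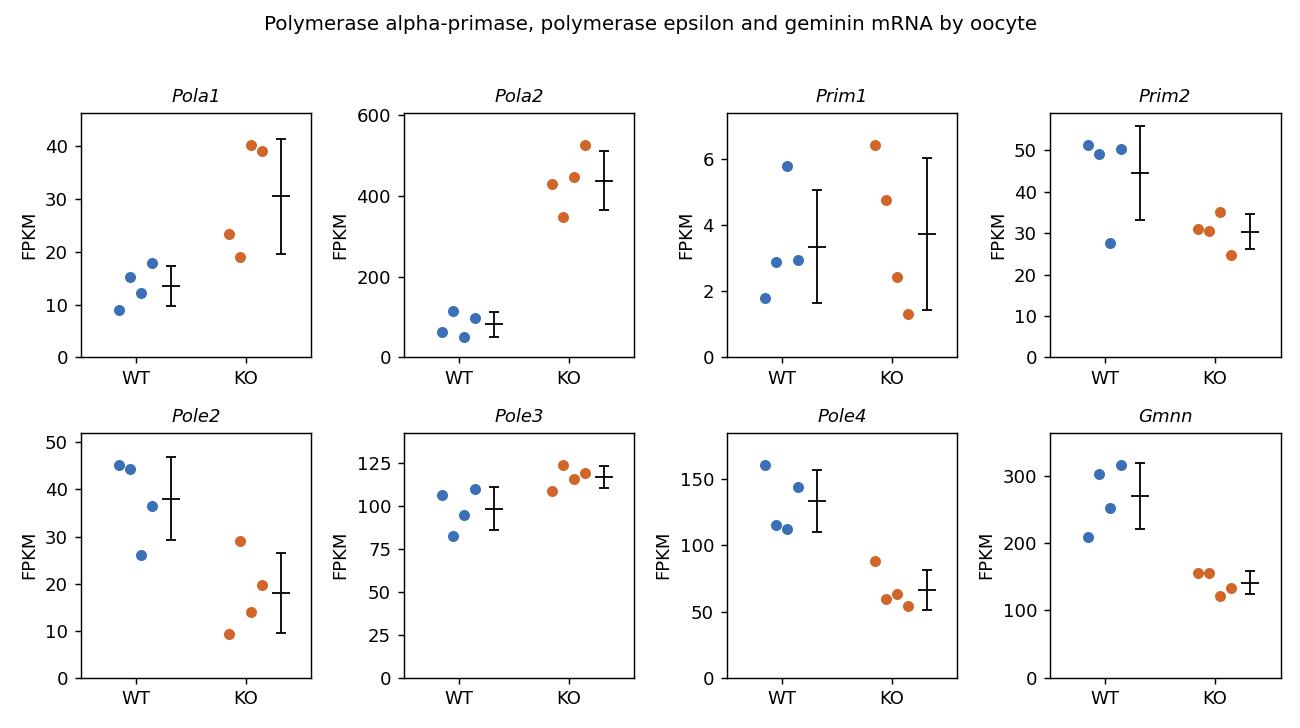
FPKM of the polymerase alpha-primase and epsilon subunits and of geminin by oocyte, on linear axes from 0 with a scale per gene, where points are oocytes and the bar is the mean with its SD (n = 4 per genotype). Pola2 and Pola1 are higher and Pole4 and Gmnn lower in all 4 KO oocytes, whereas Prim1, Prim2, Pole2 and Pole3 overlap.

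Polymerase delta, which copies the lagging strand, was represented mainly by Pold3, an accessory subunit. Its FPKM was 56.2, 61.0, 61.5 and 24.8 in WT and 45.5, 51.8, 29.9 and 41.2 in KO oocytes, with means of 50.9 ± 17.5 and 42.1 ± 9.24. Only WT oocyte 5 stood away from the other WT oocytes. Pold1, the catalytic subunit, had no read in 7 oocytes and 8 in KO oocyte 5, and Pold2 had 96, 38, 0 and 1 reads in WT and 0, 0, 0 and 130 in KO oocytes. Pold4, the smallest subunit (chr19:4231899-4233634), had FPKM of 0.204, 0, 1.42 and 0 in WT and 3.51, 1.72, 2.49 and 1.72 in KO oocytes, from 73 and 373 reads in all. All 4 KO oocytes lay above the WT oocytes, and the fold of 5.80 was 34.7 without WT oocyte 4 and 4.35 without WT oocyte 2 or 5. Pold4 was compared through its KO oocytes, since only 1 WT oocyte reached an FPKM of 1. In GENCODE M21, 24.6% of its 1164 exonic bases are shared with AC109138.7, whereas the length behind its FPKM came out at 910 bases.

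The sliding clamp and its loader did not differ by 2-fold at any compared gene. Pcna, the clamp that holds polymerases on DNA, had FPKM of 128, 117, 84.7 and 109 in WT and 114, 135, 127 and 128 in KO oocytes, with means of 109.8 ± 18.5 and 126 ± 8.59. Rfc1, the large loader subunit, was at 46.7, 49.2, 41.1 and 37.9 in WT and 27.5, 38.4, 30.3 and 28.1 in KO oocytes, with WT oocyte 5 just below KO oocyte 3. Its mean was 1.41-fold higher in WT. Rfc3, Rfc4 and Rfc5 had means of 1.62 to 5.52 in either genotype, and all 3 overlapped. Rfc2 had 96, 0, 39 and 7 reads in WT oocytes and 1, 0, 0 and 0 in KO oocytes, a level at which most oocytes are under the 3 reads taken here as the floor.

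Subunits of RPA, the complex that coats single-stranded DNA, differed widely in level. Rpa3, the smallest, had FPKM of 186, 203, 237 and 267 in WT and 263, 166, 176 and 197 in KO oocytes, with means of 223 ± 35.8 and 200.4 ± 43.7 that overlapped. Rpa1, the DNA-binding subunit, was at 4.30 ± 3.68 and 2.77 ± 1.10, and Rpa2 at 0.582 ± 0.644 and 0.886 ± 0.902. CAF-1 deposits histone H3 behind the fork, in contrast to HIRA, which acts outside replication. Its subunit gene Chaf1a had FPKM of 13.9, 16.9, 17.5 and 5.33 in WT and 10.3, 15.8, 5.52 and 6.55 in KO oocytes, with overlap. In GENCODE M21, 52.5% of its 8854 exonic bases lie antisense to Ubxn6. The length behind its FPKM came out at 2844 bases, so the share among counted bases is not known. Chaf1b was at 0.284 ± 0.312 and 0.582 ± 0.656.

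Outside these 47 genes, 5 lists of other replication genes were counted, 90 symbols of which 89 were in the table and 59 compared. Of the 59, 6 were at least 2-fold higher (10.2%) and 1 was lower (1.69%), against 18.3% and 6.84% of all compared genes, and the median difference was 0.05. Initiation factors, with 6 compared, had none past 2-fold and a median of -0.35. Fork factors, with 16 compared, had 1 higher and 1 lower and a median of -0.10. Wdhd1, which tethers polymerase alpha to the helicase, was at 3.14, 1.96, 2.94 and 3.45 in WT and 5.83, 8.72, 6.09 and 6.91 in KO oocytes, 2.40-fold higher with no overlap. Top2b, a type II topoisomerase, was at 6.40, 9.42, 9.15 and 9.60 in WT and 3.96, 1.34, 1.99 and 2.94 in KO oocytes, 3.38-fold lower with no overlap. In GENCODE M21, 12.3% of its 14613 exonic bases lie antisense to Rarb. The length behind its FPKM came out at 6355 bases. None of the 7 compared checkpoint genes passed 2-fold, with a median of 0.01.

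Of 9 compared genes of dNTP supply only Samhd1, a dNTP hydrolase, passed 2-fold. It was at 11.7, 9.05, 4.53 and 6.14 in WT and 33.2, 13.3, 23.2 and 33.3 in KO oocytes, 3.28-fold higher with no overlap. The S-phase control list had 4 of 21 genes higher and none lower, a share of 19.0% beside the 18.3% of all compared genes, and a median of 0.28. Ccne2, a cyclin E that drives S-phase entry with CDK2, was at 18.6, 9.56, 13.4 and 12.3 in WT and 62.9, 38.4, 66.5 and 69.0 in KO oocytes, 4.40-fold higher with no overlap. In GENCODE M21, 17.4% of its exonic bases lie antisense to Ints8. E2f2, an activating E2F, was at 0.432 to 0.869 in WT and 1.45 to 2.90 in KO oocytes, and it was compared only through its KO oocytes, since no WT oocyte reached an FPKM of 1. The other two were Cdkn1a and Rbl2, a CDK inhibitor and a pocket protein, which were 2.89-fold and 2.61-fold higher in mean with overlap. Rbl2 reached an FPKM of 1 in 1 WT and 4 KO oocytes, and Cdkn1a in 2 WT and 4 KO oocytes. The count of 4 thus includes E2f2, Rbl2 and Cdkn1a, which entered the comparison wholly or in larger part through the oocytes in which they were high.

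**Figure D4:**
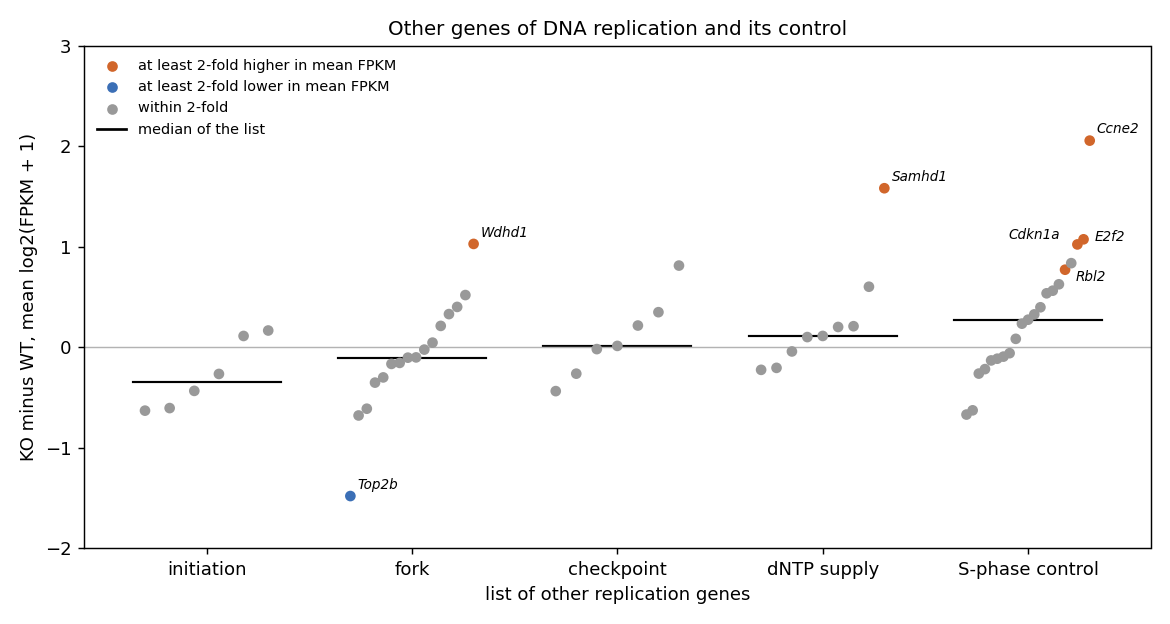
Difference, KO minus WT of the mean log2(FPKM + 1), of the 59 compared genes of 5 lists of other replication genes, with 1 point per gene, list medians as black lines and genes at least 2-fold apart in colour. Ccne2, Samhd1, E2f2, Wdhd1, Cdkn1a and Rbl2 lie above, Top2b lies below, and the list medians run from -0.35 to 0.28.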

How the data were processed

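cDNA was made directly from each oocyte with a SMARTer kit, ERCC spike-in RNA was added, and the sonicated cDNA was sequenced on a HiSeq 2500, per the labels. The authors deposited FPKM, and the submitters' processing notes name Bowtie 0.12.8, TopHat, TopHat2 2.0.2, Bowtie2, HTSeq, edgeR 3.1.10 and mm9 without roles. No source used here gives the annotation release, gene lengths or strand setting. The table analysed has no ERCC rows, so RNA per oocyte was not measured and levels are relative within a library.

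Library totals, gene lengths and whole reads were worked back from the steps of the deposited FPKM, using 8308 genes whose length equals that in GENCODE M21, and 99.99% of values above 0 were whole within 0.01 reads. Intervals are not given for these reads, which have no molecular identifiers. Symbols matched 32897 of 37620 identifiers. Gene positions and overlaps came from GENCODE M21 (GRCm38), promoters from RefSeq, and no coordinates were carried between builds.

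Genes with FPKM of at least 1 in 4 of 8 oocytes were compared by mean FPKM and by log2(FPKM + 1). No test was run, since each genotype counts as 1 sample. Values are given in every oocyte for compared genes at least 2-fold apart and for the highest gene of each role, and other genes were named for context. Of each other list, up to 4 compared genes at least 2-fold apart without overlap were named, with the largest folds. The genes and lists were chosen with earlier results of these data known. The alternatives, 17 in all, changed the pseudocount, filter, scaling or summary, kept only oocytes of a number shared by the genotypes, or left out each oocyte. Those of pseudocount and filter cannot change the fold of a gene, which is a ratio of mean FPKM. Python 3.11.15, numpy 2.4.6, pandas 2.3.3 and matplotlib 3.10.9 were used. The fold was tested on simulated data, and the overlap counts were not.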

Additional observations from a re-analysis of the deposited data

Results flagged for a closer look

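In 84 groups of 4 oocytes, 1 oocyte lay far from the other 3 in 9, where about 4.2 would stand out by chance at 1 in 20. Gins4 was low in WT oocyte 4, at 0.263 FPKM against 1.84 to 1.92, and Prim2 was low in the same oocyte, at 27.6 against 49.0 to 51.3. WT oocyte 4 was high for Orc2, at 9.18 against 5.07 to 5.56, and for Pold4, at 1.42 against 0 to 0.204. Pold3 was low in WT oocyte 5, at 24.8 against 56.2 to 61.5. WT oocyte 1 was high for Rfc5, at 7.89 against 2.80 to 3.65, and for Rpa1, at 9.75 against 1.66 to 3.02. KO oocyte 1 was high for Mcm3, at 11.7 against 6.38 to 6.95, and for Orc1, at 12.6 against 11.5 to 11.6.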

How the results depend on the processing

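The median difference, 0.06 over the 42 compared genes, moved by less than 0.18 under all 17 alternatives. That value is the SD, between oocytes of a genotype, of the median log2(FPKM + 1) level of these genes in an oocyte. The median difference ran from -0.07 with quantile normalization to 0.22 on the TPM scale, and from 0.07 to 0.15 when 1 oocyte was left out. The 3 higher genes became 5 on the TPM scale, with Gins1 and Mcm9, and 3 to 5 with 1 oocyte left out. With a mean FPKM of at least 5 as the filter, 2 were higher and 2 lower, as Pold4 and Gins2 were no longer compared. The 3 lower genes became 0 on the TPM scale and 1 to 3 with 1 oocyte left out, where Gmnn alone was called without WT oocyte 1, Pole4 alone without KO oocyte 1, Pole2 alone without KO oocyte 3 and Gins2 alone without KO oocyte 5. Without WT oocyte 4, and without KO oocyte 1, the higher genes numbered 5. Oocytes 1 and 5 share a number across genotypes that nothing in the labels ties to an animal, and their deviations correlated at 0.03 and 0.07 against -0.09 to 0.10 for other pairs. When only oocytes 1 and 5 of each genotype were kept and compared without pairing, 6 genes were higher and 5 lower. At few reads, as for Pold1, Pold2, Pold4 and Rfc2, depth limits any comparison.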

Other observations

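Some other control genes were chosen after their values were seen. Fbxo5, Ccna2, Asf1a, Etaa1 and Mtbp did not overlap between the genotypes and stayed within 2-fold. Such separation was no more frequent in the 5 lists than elsewhere. Of their 59 compared genes, 8 had all KO oocytes above all WT oocytes (13.6%), against 13.4% of all compared genes. All KO oocytes lay below for 2 (3.39%), against 7.37%. Fbxo5, which encodes the APC/C inhibitor EMI1, had a mean FPKM of 87.1 ± 20.2 in WT and 157 ± 37.1 in KO oocytes. Ccna2, an S-phase and mitotic cyclin, was at 26.1 ± 3.79 and 39.0 ± 4.03, the histone chaperone gene Asf1a at 43.3 ± 5.78 and 62.4 ± 5.82, and Etaa1, an activator of the kinase ATR, at 5.56 ± 0.690 and 10.6 ± 1.70. In GENCODE M21, 48.0% of the 3638 exonic bases of Asf1a lie antisense to Mcm9. The length behind its FPKM came out at 2180 bases. Mtbp, a partner of the initiation factor treslin, went the other way, at 6.97 ± 1.40 in WT and 4.21 ± 0.641 in KO oocytes. Topbp1, a scaffold of helicase activation, was below the level compared and further apart, at 0.136 to 0.396 in WT and 0.914 to 2.31 in KO oocytes.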
